A study of Mus musculus with 8 samples.

Results

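Aminoacyl-tRNA synthetases attach each amino acid to its transfer RNA and so feed the ribosome. The genes described here were the rows of the deposited value table whose single platform gene symbol was one of 36 listed synthetase genes, 20 of them cytosolic and 16 mitochondrial. Of these, 35 were found among the 18193 genes with such a row, 19 cytosolic and 16 mitochondrial. Dars was not analysed here, and Mars appears in the platform annotation under its newer symbol, Mars1.

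Cytosolic synthetases charge the tRNAs used by the main protein synthesis machinery, and several of them sit together with scaffold proteins in the multisynthetase complex. The mitochondrial enzymes are also encoded in the nucleus, but they are imported to charge the tRNAs of the mitochondrial genome, which serve the few proteins made inside the organelle. When a cell lacks amino acids, uncharged tRNA activates the kinase Gcn2 and with it the transcription factor Atf4, and many cytosolic synthetase genes are known targets of Atf4. Gars and Kars serve both compartments and were counted as cytosolic.

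The cells were NIH3T3, an established mouse embryonic fibroblast line, transduced with mVenus-p27K-, a fluorescent form of a mutant of the cell cycle inhibitor p27, and mCherry-hCdt1(30/120), a fluorescent Cdt1 fragment present in G0 and G1. All cells had been kept without serum and then for 5 h in medium with 10% serum. The sort gave mVenus-negative, mCherry-positive cells, labelled G1, and mVenus-positive, mCherry-positive cells, labelled G0. Each group had 4 arrays of total RNA, numbered as replicates 1 to 4. Both groups carried both reporters, and the labels do not state that the replicates were grown separately. The p-values therefore cover the spread of these 8 arrays alone, which may be technical.

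Values are on a log2 scale (base inferred from their range), and the deposited numbers have a median of 0 for each probe set. They give differences between arrays but no level, so whether a synthetase or a fibroblast marker was abundant or near background cannot be read from them, and levels cannot be compared between genes. In array data of this kind fewer cells of a type and less RNA per cell cannot be told apart. The poly-A spike-ins, bacterial transcripts added before labelling, gave no signal on G1 replicate 4 and G0 replicate 3, where the median of their 12 probe sets was −6.12 and −7.12, against −0.16 to 0.64 on the other 6 arrays. The labels instead put replicate 4 of both groups in a labelling batch of their own, with kit protocol revision 3 in place of 8. The 2 groupings would be one if G0 replicates 3 and 4 carried each other's titles, which the labels do not settle. Such an exchange would leave the differences between G1 and G0 as they are, but it would change which arrays every labelled-batch value below sets against each other. Results use the labelled batch as covariate, with the grouping seen in the spike-ins (the spike-in batch) added where it matters. With all 8 arrays the log2 differences are the same in both fits and only their errors differ. The groups differed in proliferation genes: of 7 measured markers of S, G2 and M phase 6 were higher in G1 (limma, adjusted p under 0.05), where 0.5% of all genes were. Mki67, a marker of cycling cells, had a log2 difference of 3.82 (SE 0.25; limma, adjusted p = 0.0089). Of 8 fibroblast markers 0 passed, and the same holds for 7 leukocyte, 6 epithelial and 5 endothelial markers.

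No synthetase gene was called different between G1 and G0. In limma with the labelled batch, 0 of 19 cytosolic and 0 of 16 mitochondrial members passed an adjusted p of 0.05, where 0.522% of all 18193 genes did (0.5% higher and 0.022% lower in G1). With so small a share, a count of 0 among 35 genes is not particular to the synthetases. At an unadjusted p under 0.05 there were likewise 0 of 35, against 8.07% of all genes. With the spike-in batch as covariate 0 passed, against 1.01% of all genes, and 1 did at an unadjusted p under 0.05, against 12.4%. The log2 differences, G1 minus G0, lay between −0.28 and 0.47 for the cytosolic genes and between −0.58 and 0.31 for the mitochondrial ones. The lowest adjusted p was that of Vars, at 0.796 in the first of these limma fits and 0.406 in the second.

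**Figure D1:**
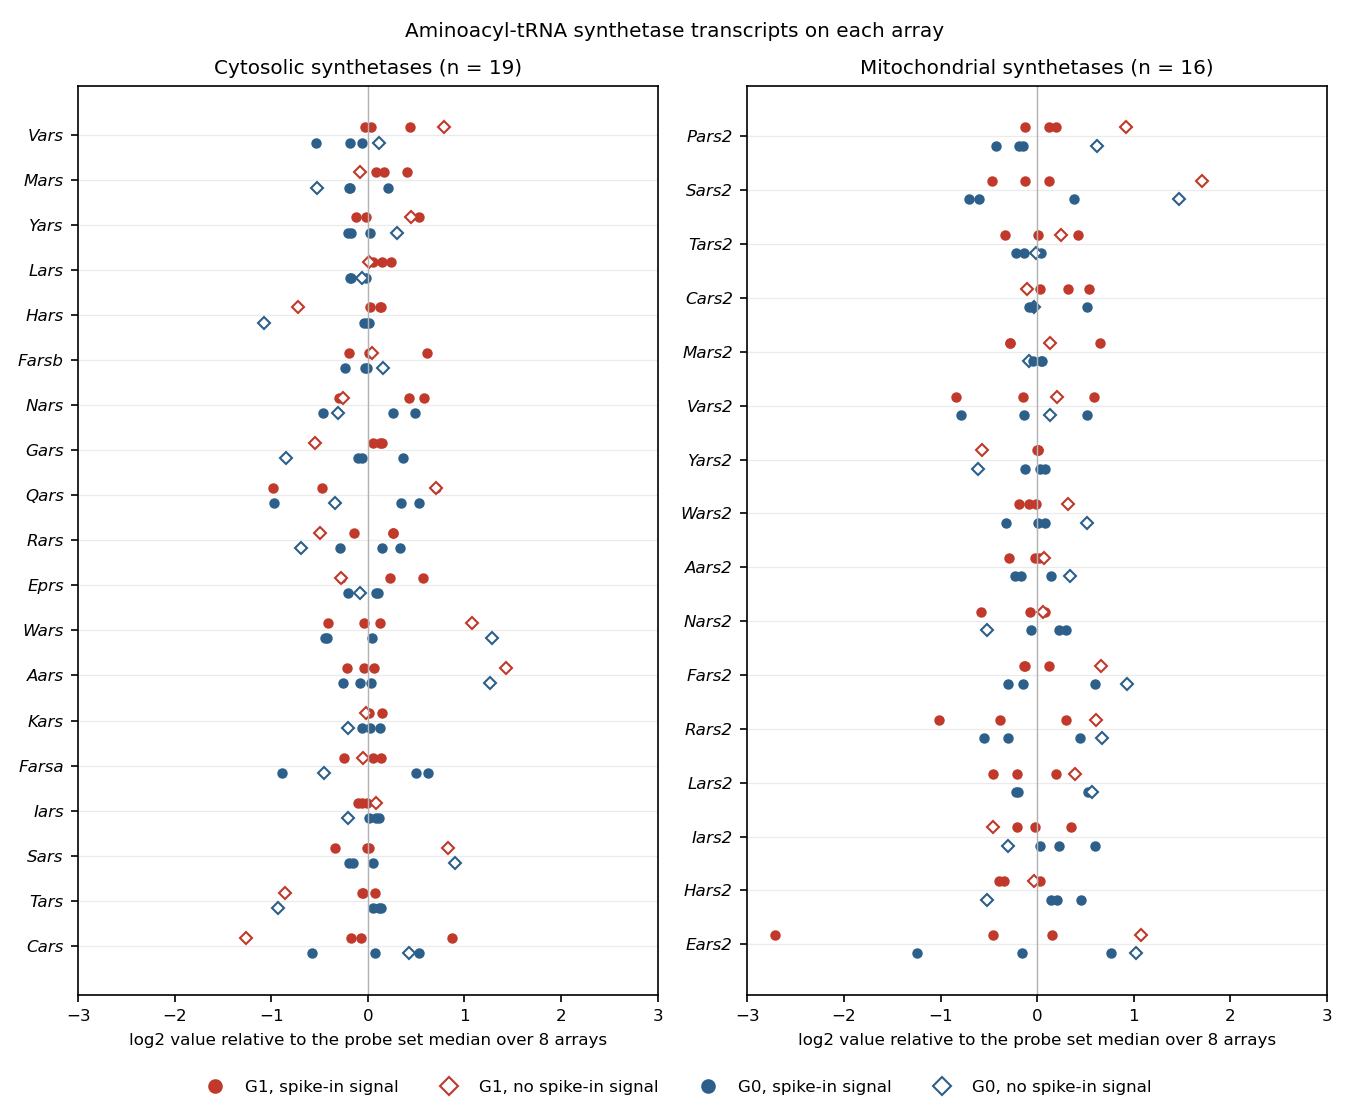
Log2 value of each synthetase gene on each of the 8 arrays, relative to the probe set's median, with G1 arrays (red) drawn above G0 arrays (blue) in every row and genes ordered by their difference. Open diamonds are the arrays without spike-in signal, G1 replicate 4 and G0 replicate 3, which lie together and apart from the other 6 arrays for genes such as Aars, Wars, Tars and Sars2.

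A p above the threshold does not show that a gene did not change, but an interval shows how large a change remains possible. The 95% confidence interval of the difference lay within 2-fold in either direction for 13 of 19 cytosolic and 12 of 16 mitochondrial genes. Over all genes tested this was so for 32.4%. With the spike-in batch it was so for 17 of 19 and 14 of 16, against 40.7% of all genes. The intervals that reached past 2-fold in that second fit were those of Cars, Qars, Ears2 and Rars2. These are the intervals of the probe set chosen for each gene. The other probe set of Cars (−0.36 to 0.70) and the other ones of Qars lay within 2-fold in that fit. The other ones of Ears2 reached past it.

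**Figure D2:**
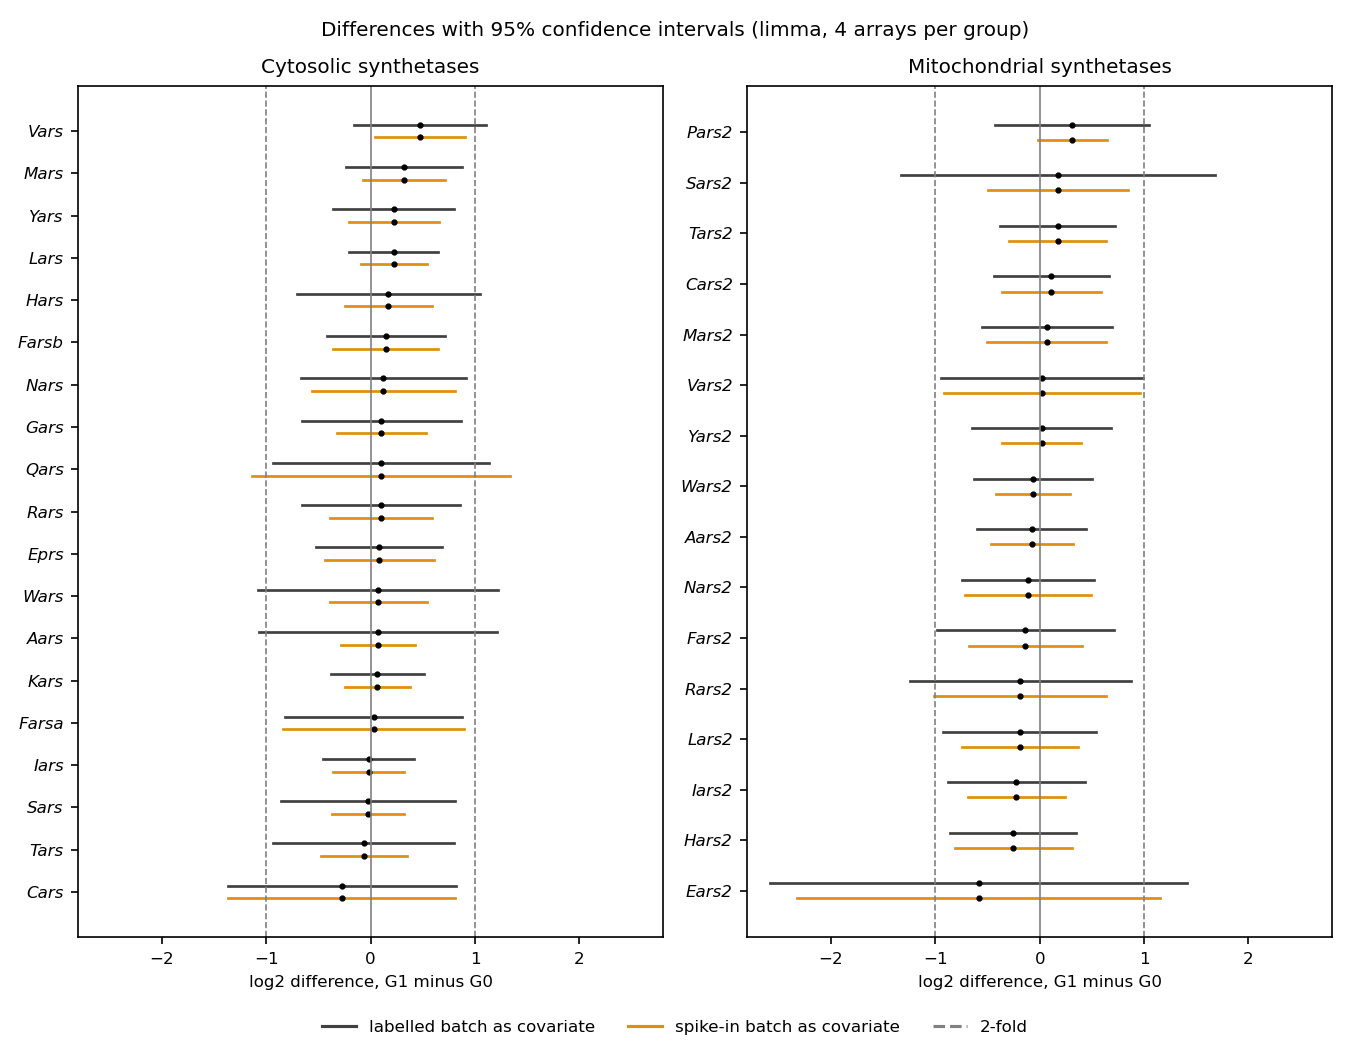
Log2 difference, G1 minus G0, of each synthetase gene with its 95% confidence interval from limma, with the labelled batch as covariate (grey) and with the spike-in batch (orange), n = 4 arrays per group. Dashed lines mark 2-fold; 25 of the 35 grey intervals and 31 of the 35 orange ones lie between them.

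The promoter sequences show which members carry the element through which Atf4 is known to act, the C/EBP-ATF response element. It was searched as TGATGNAAN on both strands, from 250 bases before to 50 after each gene's start, in RefSeq promoters of mouse build GRCm38.p6, which held 27 of the 36 listed genes. A match was found for 5 of 13 cytosolic genes and 0 of 14 mitochondrial ones, and in 3.95% of all 32851 promoter windows. The stretches are printed 5′ to 3′ on the gene's strand, with the match in capitals. Those of Aars, Gars, Iars and Tars hold it on the opposite strand, and Aars has a second match 8 bases after its start, not shown. They are shown because this element is the known link between Atf4 and synthetase genes. A match is a description of letters and not a bound site.
Aars, chr8:111033708-111033758, plus strand, match 113 bases before the start: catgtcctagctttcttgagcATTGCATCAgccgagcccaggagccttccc
Gars, chr6:55037949-55037999, plus strand, match 31 bases before the start: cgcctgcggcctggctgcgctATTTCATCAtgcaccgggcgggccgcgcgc
Tars, chr15:11399659-11399695, minus strand, match 16 bases before the start: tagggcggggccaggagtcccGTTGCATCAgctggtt
Iars, chr13:49682118-49682147, plus strand, match 6 bases after the start: gagcctggcactgtcagtATTGCATCAcct
Yars, chr4:129189888-129189917, plus strand, match 3 bases after the start: cggagcgacgagctcagcTGATGCAACccg

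The 5 genes with a match differed between G1 and G0 by −0.07 to 0.22, with a median of 0.07. The 7 measured cytosolic genes without a match in the window differed by −0.03 to 0.32, with a median of 0.08. The ranges overlapped, and no test was made. The arrays without spike-in signal differed from those with it in both directions on the probe sets chosen for these 5 genes. The log2 differences were 1.43 for Aars, 0.37 for Yars, −0.07 for Iars, −0.78 for Gars and −0.94 for Tars. For Aars and Iars the other probe set gave 0.02 and −1.01, so these values depend on the probe set chosen.

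Vars, the valyl-tRNA synthetase, which associates with the elongation factor 1 complex, had the lowest p. It read 0.43, −0.04, 0.04 and 0.79 on G1 replicates 1 to 4, against −0.06, −0.18, 0.11 and −0.54 on G0 replicates 1 to 4. Every G1 array but replicates 2 and 3 was above all G0 arrays, and the groups overlapped. The log2 difference was 0.47 (SE 0.27), a 1.39-fold higher mean in G1. With the spike-in batch its 95% interval was 0.04 to 0.90, which leaves out 0, while the adjusted p stayed above the threshold. The 2 labelled batches taken singly gave differences of 0.19 and 1.32. The 2 spike-in batches gave 0.40 and 0.68. In both cases the second value sets a single G1 array against a single G0 array.

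Lars, Mars and Yars followed, each with a small positive difference. Lars, the leucyl-tRNA synthetase, which also acts as a leucine sensor upstream of mTORC1, read 0.24, 0.15, 0.06 and 0.02 in G1, against −0.02, −0.19, −0.06 and −0.17 in G0. It was the only member whose groups did not overlap, where 7.07% of all genes were separated in this way, 3.79% with G1 above. Its log2 difference was 0.22 (SE 0.18; limma, adjusted p = 0.880), and the exact permutation test over the 8 arrays gave p = 0.0286 (two-sided, unadjusted), the smallest that 4 against 4 arrays can give. Mars, the methionyl-tRNA synthetase, which also charges the initiator tRNA, read 0.41, 0.09, 0.17 and −0.09 in G1, against 0.21, −0.20, −0.53 and −0.19 in G0. Only G0 replicate 1 lay among the G1 values, and the log2 difference was 0.32 (SE 0.24; limma, adjusted p = 0.864). Yars, the tyrosyl-tRNA synthetase, read 0.53, −0.02, −0.12 and 0.44 in G1, against −0.18, 0.02, 0.30 and −0.21 in G0. Both groups held high and low arrays, and the difference was 0.22 (SE 0.25; limma, adjusted p = 0.928).

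The remaining cytosolic genes of that rank scattered more than they differed. Farsb, the beta subunit of phenylalanyl-tRNA synthetase, read 0.61, −0.19, 0.01 and 0.04 in G1, against −0.01, −0.23, 0.16 and −0.03 in G0. G1 replicate 1 stood above the other 7 arrays, which overlapped. Hars, the histidyl-tRNA synthetase, read 0.12, 0.13, 0.02 and −0.73 in G1, against −0.04, 0.01, −1.08 and −0.01 in G0. Here G1 replicate 4 and G0 replicate 3 were low and the other 6 arrays lay within a narrow band. Nars, the asparaginyl-tRNA synthetase, read −0.30, 0.58, 0.42 and −0.26 in G1, against −0.47, 0.48, −0.31 and 0.26 in G0, with high and low arrays in both groups. Cars, the cysteinyl-tRNA synthetase, read −0.08, −0.18, 0.87 and −1.27 in G1, against −0.58, 0.08, 0.43 and 0.53 in G0. Its 2 G1 extremes, replicates 3 and 4, enclosed all G0 values. Cars had the lowest cytosolic difference, −0.28 (SE 0.47), with a 95% interval of −1.37 to 0.82. Its other probe set differed by 0.17 (SE 0.29).

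The other 11 cytosolic genes were closer still to 0. Their log2 differences lay between −0.07 and 0.10, with limma adjusted p from 0.983 to 0.997. Among them Kars differed by 0.06 (SE 0.19) and Iars by −0.02 (SE 0.19), and their intervals, −0.38 to 0.51 and −0.46 to 0.42, were among the narrowest of the class. Not all were so well bounded. With the labelled batch the intervals of Qars (−0.94 to 1.14), Wars (−1.08 to 1.23) and Aars (−1.07 to 1.21) reached past 2-fold.

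Mitochondrial synthetases differed in both directions. Pars2, the mitochondrial prolyl-tRNA synthetase, read 0.19, −0.12, 0.12 and 0.92 in G1, against −0.19, −0.42, 0.62 and −0.14 in G0. The highest array of each group was one without spike-in signal, and the log2 difference was 0.31 (SE 0.31; limma, adjusted p = 0.915). The difference of Pars2 was 0.32 on the 6 arrays with spike-in signal and 0.31 between the single G1 and the single G0 array without it. With that batch as covariate the interval of Pars2 was −0.02 to 0.65. Hars2, the mitochondrial histidyl-tRNA synthetase, read 0.03, −0.34, −0.39 and −0.03 in G1, against 0.20, 0.15, −0.52 and 0.45 in G0. All G0 arrays but replicate 3 lay above all G1 arrays, and the difference was −0.25 (SE 0.26; limma, adjusted p = 0.915). On the 6 arrays with spike-in signal Hars2 differed by −0.50, and between the other 2 arrays by 0.49.

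Iars2, Tars2, Ears2 and Lars2 came next in order of p. Iars2 (isoleucine) read 0.35, −0.21, −0.03 and −0.46 in G1, against 0.60, 0.03, −0.30 and 0.23 in G0, and the groups overlapped. Tars2 (threonine) read 0.42, −0.33, 0.01 and 0.25 in G1, against 0.04, −0.14, −0.01 and −0.22 in G0, and the G0 arrays all lay inside the G1 range. Lars2 (leucine) read 0.20, −0.46, −0.21 and 0.39 in G1, against 0.52, −0.21, 0.57 and −0.20 in G0. Its highest pair of arrays was in G0 and its lowest array in G1. Ears2, the glutamyl enzyme, was the noisiest member, at 0.16, −2.72, −0.46 and 1.07 in G1, against 0.77, −1.24, 1.03 and −0.16 in G0. The difference of Ears2, −0.58, has a 95% interval of −2.58 to 1.41 and cannot be read as a change. The other 10 mitochondrial genes differed by −0.19 to 0.17, with limma adjusted p from 0.973 to 0.998.

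Neither class as a whole separated the groups. The median log2 difference was 0.10 over the 19 cytosolic genes, with 15 positive, and −0.07 over the 16 mitochondrial genes, with 7 positive. Over all genes tested it was −0.06, with 44.7% positive. The counts of positive differences depended on the processing. With the mean of all probe sets of a gene they were 11 cytosolic and 5 mitochondrial. Without G1 replicate 3 they were 12 and 6, and with quantile normalization 16 and 7. The class medians on each array make the spread visible. On the G1 arrays the cytosolic median ran from −0.04 to 0.07, against −0.21 to 0.04 on the G0 arrays. For the mitochondrial genes the range was −0.31 to 0.23 in G1, against −0.19 to 0.30 in G0. Both classes overlapped between the groups, while the median of the proliferation genes ran from 1.28 to 2.01 in G1, against −1.80 to −1.28 in G0.

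**Figure D3:**
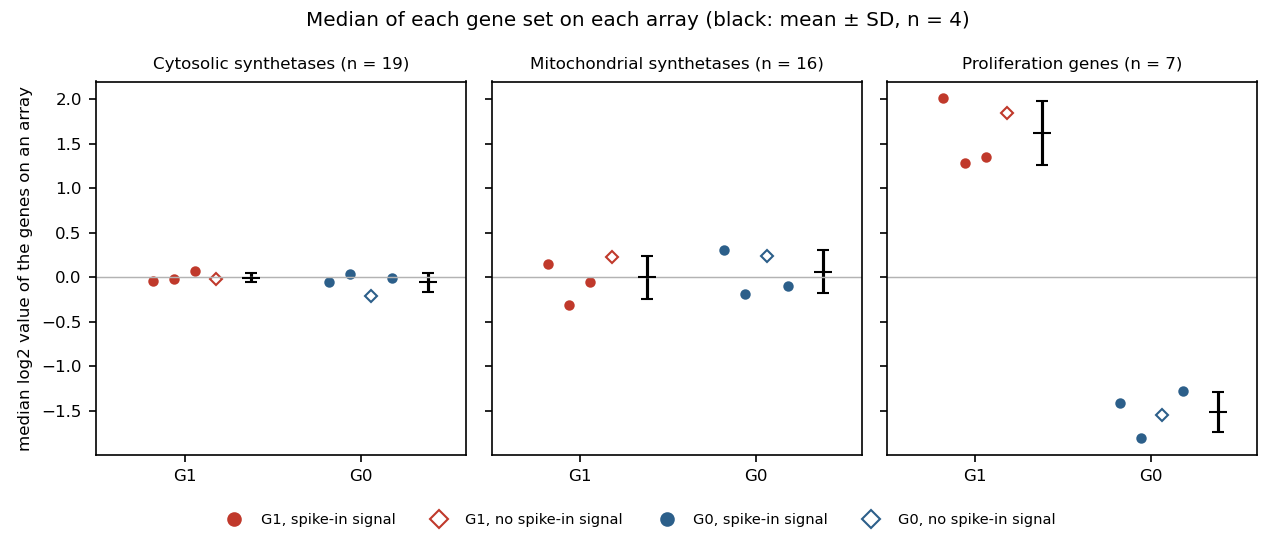
Median log2 value of the cytosolic synthetases, the mitochondrial synthetases and 7 proliferation genes on each array, G1 left and G0 right, with the mean ± SD of the 4 arrays in black and open diamonds for arrays without spike-in signal. The G1 and G0 arrays overlap in both synthetase panels and lie wholly apart in the proliferation panel.

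The cytosolic median depended on single arrays. It was 0.05 without G0 replicate 3, 0.06 without G1 replicate 3 and 0.23 without replicate 4 of either group, which leaves labelling batch 1 alone. The mitochondrial median was 0.05 without G0 replicate 3, 0.00 without G1 replicate 2, −0.01 without G0 replicate 1, −0.13 without G1 replicate 1 and −0.16 without G0 replicate 2. Within the labelled batches the cytosolic median was 0.23 and −0.03 and the mitochondrial −0.08 and 0.29. Within the spike-in batches the cytosolic median was 0.11 and 0.17, and the mitochondrial −0.02 and 0.04. The second batch of either kind holds a single array of each group.

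Enzymes for the same amino acid were also set side by side. There were 17 pairs of a cytosolic and a mitochondrial gene for 16 amino acids, with Eprs paired with both Ears2 and Pars2 and both subunits of the phenylalanyl enzyme with Fars2. In 13 pairs the cytosolic difference was the more positive, and in 4, those of serine, proline, threonine and cysteine, the mitochondrial one. The median of the pair differences was 0.21, with a range of −0.39 to 0.67. The widest gap, that of Eprs and Ears2, rests on the noisiest member. These pair values are a description with no test. With the labelled batch as covariate the count of 13 was 10 without G1 replicate 2 and 11 without G0 replicate 3. The median gap between the classes, 0.17, was 0.07 and 0.00070 without those arrays. It was also 0.07 without G0 replicate 1, 0.27 without G0 replicate 2, and 0.31 without replicate 4 of either group. Part of that spread depended on the covariate. The spike-in batch as covariate gave 11 pairs and a gap of 0.08 without G1 replicate 2. Without G0 replicate 3 it gave 13 pairs and a gap of 0.12. The gap was then 0.08 without G0 replicate 1 and 0.26 without G0 replicate 2. It was 0.12 without G1 replicate 4 and 0.14 without G0 replicate 4.

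**Figure D4:**
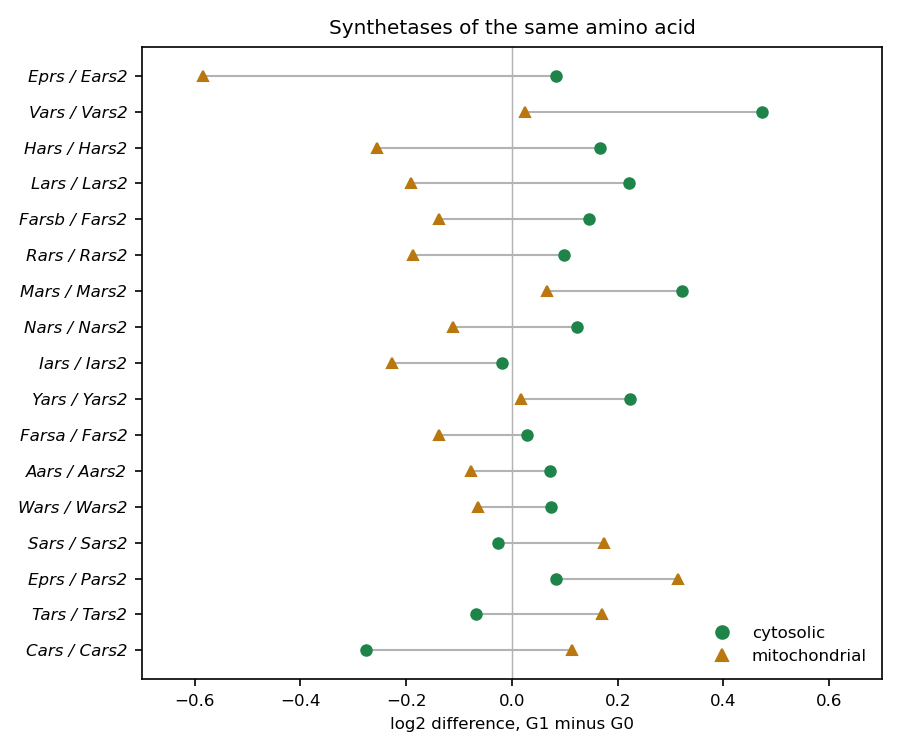
Log2 difference, G1 minus G0, of the cytosolic (circle) and the mitochondrial (triangle) synthetase of the same amino acid, 17 pairs in order of the gap between them. The circle lies to the right in 13 pairs, and all points lie between −0.58 and 0.47.

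The arrays without spike-in signal stood apart in several synthetase genes, by more than the sorted groups did. In the fit with the spike-in batch, 6 of 35 members differed between the 2 arrays without and the 6 arrays with signal at an adjusted p under 0.05, where 4.09% of all genes did. Of these 5 were higher on the arrays without signal, against 3.43% of all genes, and 1 was lower, against 0.66%. Each group holds one of these arrays, so their offset enters both group means. The standard error of the difference between G1 and G0 was smaller with the spike-in batch than with the labelled batch in 33 of 35 members, against 77.5% of all genes, also in members with an offset near 0 such as Lars (0.13 against 0.18). These genes were chosen for this description after their values were seen, except Pars2.

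Aars, the alanyl-tRNA synthetase, read −0.22, −0.04, 0.07 and 1.43 in G1, against −0.08, 0.04, 1.26 and −0.26 in G0. One array in each group was high, and the other 6 lay close to 0. The offset was 1.43 (SE 0.17; limma, adjusted p = 0.017). Within the labelled batches Aars differed between G1 and G0 by −0.47 and 1.69, since labelled batch 2 sets an array without signal against one with it, whereas within the spike-in batches it differed by 0.04 and 0.17. Wars, the tryptophanyl enzyme, also known as an interferon-induced gene, had an offset of 1.37, Sars (serine) of 0.97, Pars2 of 0.87 and Sars2 (mitochondrial, serine) of 1.82 (limma, adjusted p = 0.026, 0.028, 0.035 and 0.031). Tars, the threonyl enzyme, was lower on those arrays, with an offset of −0.94 (limma, adjusted p = 0.0499), and Hars, at −0.95, did not pass (adjusted p = 0.051).

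Probe sets of the same gene disagreed about this offset. The 35 genes had 72 probe sets, and 23 genes had more than 1. For Aars the other probe set had an offset of 0.02, against 1.43 on the one chosen for the gene. Iars showed the reverse order, with −1.01 on the probe set not chosen (limma, adjusted p = 0.042) and −0.07 on the chosen one. For Sars the other probe set had an offset of 0.30 and for Hars −0.11 (limma, adjusted p = 0.465 and 0.718). The offsets given above for Sars and Hars therefore rest on the probe set chosen. All 4 probe sets of Wars were higher, by 0.90 to 1.56. What sets these arrays apart was not tested.

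Other probe sets of these genes gave no call between G1 and G0 either. Of the 72 probe sets 0 passed over all probe sets tested, with the labelled batch or with the spike-in batch (limma, lowest adjusted p = 0.661 and 0.393). The signs differed among the probe sets of 12 of the 23 genes. The lowest difference, −2.03, was that of the second probe set of Mars2, which read −3.12, −0.08, −4.29 and 0.01 in G1, against −0.01, 0.24, 0.05 and 0.35 in G0. That value is made by 2 G1 arrays, and the other probe set of Mars2 differed by 0.07. One probe set of Ears2 reached an unadjusted p of 0.040 (difference −0.59, adjusted p = 0.661), and another differed by 0.95 in the opposite direction (adjusted p = 0.917).

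**Figure D5:**
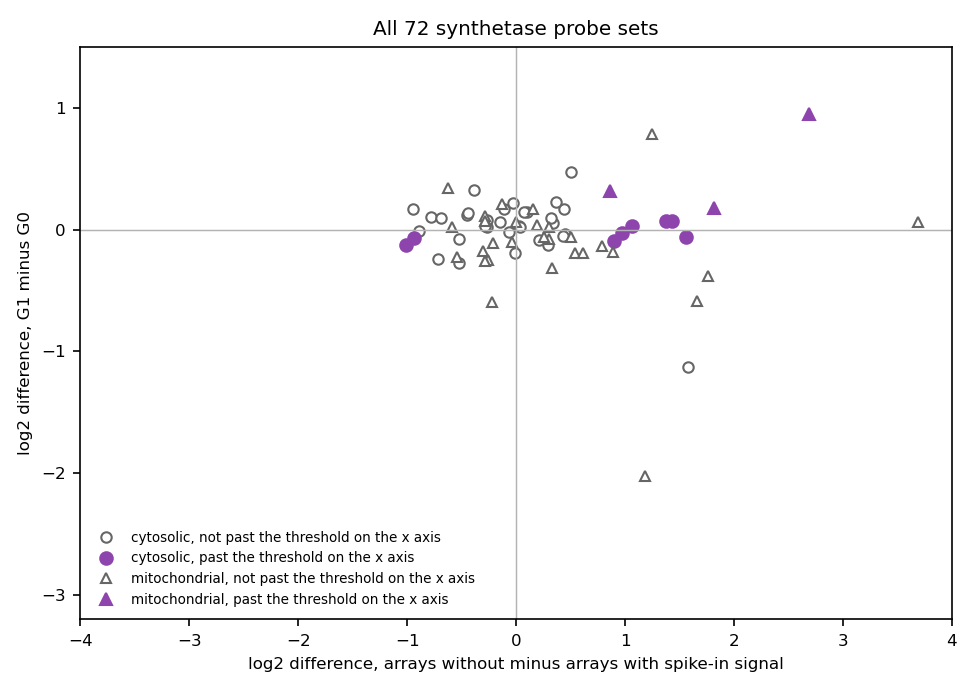
Each of the 72 synthetase probe sets by its log2 difference between the 2 arrays without and the 6 with spike-in signal (x axis) and its log2 difference, G1 minus G0 (y axis). The 11 filled points, past an adjusted p of 0.05 on the x axis, spread from −1.01 to 2.69 along x. All of them but one, a probe set of Ears2 at 0.95, lie between −0.13 and 0.31 along y.

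Genes that surround the synthetases in charging and translation were described by the same fit. Over all genes 0.522% passed in that fit, 44.7% had a positive difference, and the median was −0.06. With that share, a count of 0 in lists as short as these is not particular to them. In the multisynthetase complex, 0 of 10 measured members passed, 9 had a positive difference, and the median was 0.10. Apart from the scaffolds Aimp1, Aimp2 and Eef1e1, these members are cytosolic synthetases already counted above. Most of the set therefore repeats those values. Of the scaffolds, Aimp2 read 0.15, 0.00, 0.09 and 0.28 in G1, against −0.34, −0.01, 0.00 and −0.20 in G0. One G1 and one G0 array of Aimp2 lay together at the centre, 7.34e-05 apart on the log2 scale, so that the groups all but touch. The difference was 0.27 (SE 0.20; limma, adjusted p = 0.864). Eef1e1, another scaffold, differed by 0.14 (SE 0.32), and Aimp1 by 0.02 (SE 0.20). Of the elongation factor genes 0 of 5 passed, and all 5 differences were positive and at most 0.21. Eif5a differed by 0.16, Eef1a1 by 0.15, Eef1d by 0.21 and Eef2 by 0.07. In mitochondrial translation 0 of 12 passed, with a median of −0.20 and 2 positive. Gatb, a subunit of the amidotransferase that completes mitochondrial glutaminyl-tRNA, differed by −0.73 (SE 0.32; limma, adjusted p = 0.698), and the elongation factor Gfm1 by 0.58 (SE 0.37; adjusted p = 0.825). The elongation factor Tufm differed by −0.31 and the formyltransferase Mtfmt by −0.25.

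Transfer RNA maturation genes gave 0 of 29 past the threshold and a median of 0.10. At an unadjusted p under 0.05, 4 were higher and 0 lower, where 4.33% of all genes were higher and 3.74% lower. With the spike-in batch 5 were higher and 1 lower, where 6.04% and 6.37% of all genes were. Pop4, a protein of RNase P, which trims the 5′ end of tRNA precursors, read 0.57, 0.33, 0.49 and 0.17 in G1, against −0.17, −0.34, −0.54 and −0.29 in G0. The groups did not overlap, as in 7.07% of all genes, and the difference was 0.73 (SE 0.20; limma, adjusted p = 0.380). The spike-in batch as covariate gave Pop4 a limma adjusted p of 0.083. The tRNA splicing endonuclease subunits Tsen34 and Tsen15 differed by 0.64 and 0.65, and Rpp30, another RNase P protein, by 0.79 (adjusted p = 0.661, 0.671 and 0.677).

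In the amino acid response list, made of Atf4 and its targets, 0 of 27 passed with the labelled batch. At an unadjusted p under 0.05, 0 were higher and 4 lower, where 4.33% of all genes were higher and 3.74% lower. With the spike-in batch 3 were higher (Mthfd2, Shmt2 and Phgdh, enzymes of serine and one-carbon metabolism) and 5 lower, against the same 6.04% and 6.37% of all genes. The 3 higher genes differed by 0.69, 0.58 and 0.39 (limma with the spike-in batch, adjusted p = 0.368, 0.265 and 0.437), and are named here after their values were seen. The 5 lower ones were Slc1a4, at −0.60 (limma with the spike-in batch, adjusted p = 0.378), and Vldlr, Ddit4, Cebpb and Ddit3, described next. The median of the list was −0.01. Vldlr, a lipoprotein receptor gene, read −0.88, −1.73, −0.64 and −1.48 in G1, against 0.64, 1.09, 0.65 and 1.58 in G0. Its groups lay wholly apart, as in 7.07% of all genes, with a difference of −2.18 (SE 0.36; limma, adjusted p = 0.078). With the spike-in batch Vldlr was the 1 gene of these 27 that passed (limma, adjusted p = 0.041), where 1.01% of all genes did. Ddit4, which restrains mTORC1, differed by −1.10 (adjusted p = 0.280), the transcription factor gene Cebpb by −0.79 (adjusted p = 0.547) and the stress factor gene Ddit3 by −0.61 (adjusted p = 0.680). These 4 genes are also known to answer to signals other than Atf4. Among the kinases that sense uncharged tRNA and other stresses and their partners, 0 of 8 passed, with a median of −0.15. Abcf3 differed by −0.31, Eif2ak3 (Perk) by −0.33, Eif2ak2 (Pkr) by 0.35 and Eif2ak4, which encodes Gcn2, by −0.95 (SE 0.93; limma, adjusted p = 0.911).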

How the data were processed

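RNA of 8 samples was measured on Affymetrix mouse arrays. The deposited values are log2 values (base inferred from their range, −12.4 to 5.58), and the submitters' processing notes name MAS5. In the file every probe set has a median of 0 over the 8 arrays. The sources used here do not describe that centring. No further scaling was applied.

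Of 45101 probe sets 64 controls were left out. Of the other 45037, 34945 had 1 gene symbol, 932 several and 9160 none. Symbols were updated by Entrez identifier (gene table of GRCm38.p6). A gene was represented by the probe set first in the order _at, _a_at, _s_at, _x_at, then by lowest number. The test of G1 minus G0 was that of limma (version 3.58.1, R version 4.3.3, trend, two-sided, labelled batch as covariate), with Benjamini-Hochberg adjustment over 45037 probe sets. The fit was checked on simulated data with independent noise and an even shift on the labelled batch. That simulation held no offset on the arrays without spike-in signal, so it does not cover errors from such an offset. Precision is limited by 4 arrays per group.

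Members and lists were chosen with earlier results of these data known. Values on every array are given for the 8 cytosolic and 6 mitochondrial members of lowest p, and for listed neighbours the 4 of lowest p are named. The main fit did not pair the samples by replicate number, and whether the numbers mark pairs is not settled. Alternatives covered batch, block, arrays, scaling, weights, probe set choice and a floor filter.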

Additional observations from a re-analysis of the deposited data

Results flagged for a closer look

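In 7 of 70 groups of 4 arrays (35 genes in 2 groups) 1 array stood far from the other 3 by Dixon's ratio. Chance gives about 1 in 20 for independent groups, but these groups share the same 8 arrays. The check was not run over all genes, so the count cannot be read as particular to the synthetases. Over all genes, both arrays without spike-in signal lay above the other 6 in 14.4% and below them in 7.95%. The array that stood apart was G1 replicate 4 for Hars (−0.73), Gars (−0.55), Tars (−0.86) and Yars2 (−0.57), and G0 replicate 3 for Hars (−1.08) and Tars (−0.93). These 6 were low and lay on the arrays without spike-in signal. The values are those of the probe set chosen for each gene. The other probe set of Hars read −0.05 on G1 replicate 4 and 0.05 on G0 replicate 3, and that of Yars2 −0.42 on G1 replicate 4. The seventh flagged value was that of Cars2, high on G0 replicate 1 (0.52).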

How the results depend on the processing

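In all 28 alternatives, 16 of which left out 1 array, 0 of 35 synthetase genes passed, and the lowest adjusted p over all of them was 0.406 (Vars, limma with the spike-in batch). Of the 35 differences 10 kept their sign throughout (Kars, Lars, Mars, Vars, Yars, Cars2, Hars2, Iars2, Pars2 and Tars2), and the signs of the other 25, none of them past the threshold, were not fixed. The cytosolic median was 0.23 in labelling batch 1 alone and ran from 0.047 to 0.23 when 1 array was left out. Over all 28 alternatives it stayed positive, and the mitochondrial median ran from −0.16 to 0.05. With the mean of all probe sets of a gene the medians were 0.06 and −0.08, and with quantile normalization 0.14 and −0.03. Same-numbered replicates correlated in their deviations from the group means by 0.07, 0.11, −0.14 and −0.14, and the arrays without spike-in signal by 0.31; with the replicate block 0 genes passed, as without it, and the medians were the same, 0.10 and −0.07. Without absolute levels, dim probe sets could not be left out; a filter on tied lowest values left out none of the 35.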
